A study of Mus musculus with 22 samples.

Results

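The proton-sensing receptors described here are Gpr4, Gpr65 and Gpr132, 3 genes of the 34047 in the RNA-seq count table, together with 18 of the 177956 accessible windows of the ATAC-seq data, those for which 1 of these receptors was the closest annotated gene. The genes were chosen on RNA results from these same libraries, so their RNA values are given as a description and carry no test. The ATAC-seq libraries were separate libraries, and the windows at the loci were tested.

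The cells were conventional dendritic cells (cDCs) of mice aged 6 to 10 weeks that carry the Tbx21 RFP-cre reporter allele, in which red fluorescent protein marks expression of the transcription factor T-bet. From spleen and mesenteric lymph node (MLN), XCR1+ cDC1s and CD11b+ cDC2s without RFP (T-bet-) or with RFP (T-bet+) were sorted from CD11c+MHCII+ cells that lacked lymphocyte lineage markers, CD64 and Ly6C. RNA-seq was made from 3 libraries of each spleen subset, 3 of MLN cDC1s and 2 of each MLN cDC2 subset, 16 in all, each from cells pooled from 2 mice. ATAC-seq, which maps open chromatin by transposase insertion, was made from 2 libraries of each of the 3 spleen subsets, with 50000 cells a library. All animals carried the reporter and no treatment was compared, so every comparison is between subsets or tissues. The gate was set on RFP and not on T-bet itself, and Tbx21 RNA had a mean of 21.7 ± 4.02 CPM (the count of a gene scaled to library size; SD, n = 3) in spleen T-bet+ cDC2s, 1.40 ± 1.05 (n = 3) in T-bet- cDC2s and 0.757 ± 0.557 (n = 3) in cDC1s. In MLN the means were 5.06, 0.728 and 0.333 CPM in the same order. Summed with the T-bet+ cDC2 markers Dtx1 and Esam, MLN T-bet+ cDC2s were at 102 and 142 CPM and T-bet- cDC2s at 123 and 148 CPM. In that sum Dtx1 was at 23.1 against 2.49 CPM and Esam at 93.9 against 132 CPM.

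Proton-sensing receptors are G protein-coupled receptors of the cell surface that take up protons when the medium around a cell turns acidic, as in inflamed tissue or a tumour, and then signal through G proteins. GPR4 and GPR65 act mainly through Gs, adenylyl cyclase and cyclic AMP. GPR132 responds only weakly to protons and is known mainly as a receptor for oxidised lipids and for lactate on macrophages. GPR4 is best known in endothelium and GPR65 in lymphoid and myeloid cells.

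On mm10 (GRCm38), Gpr4 (ENSMUSG00000044317.7) lies on the plus strand of chromosome 7 at 19212538 to 19224174, with 2 exons of which 1 is coding, for 365 residues. Gpr65 (ENSMUSG00000021886.7) lies on the plus strand of chromosome 12 at 98268635 to 98276644 and codes for 337 residues from 1 of 2 exons. Gpr132 (ENSMUSG00000021298.8) lies on the minus strand of chromosome 12 at 112850873 to 112868228, has annotated transcription starts at 112868228 and 112860952, and codes for 382 residues. The antisense gene Gm47566 shares 511 exonic bases with Gpr65, and whether counting used strand is not given in the sources used here, so reads of Gpr65 and of its antisense partner cannot be told apart. The nearest gene to Gpr4 is Opa3, which codes for a mitochondrial protein and lies 4160 bases away.

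The upstream sequences of Gpr4 and Gpr65 are shown because the Gpr4 start carried a large difference in accessibility between subsets and the Gpr65 start carried none that passed the test. Each run is the 250 bases before the RefSeq start (mm10, plus strand), with capitals for the bases inside the accessible window over the start.
Gpr4, chr7:19212288-19212537: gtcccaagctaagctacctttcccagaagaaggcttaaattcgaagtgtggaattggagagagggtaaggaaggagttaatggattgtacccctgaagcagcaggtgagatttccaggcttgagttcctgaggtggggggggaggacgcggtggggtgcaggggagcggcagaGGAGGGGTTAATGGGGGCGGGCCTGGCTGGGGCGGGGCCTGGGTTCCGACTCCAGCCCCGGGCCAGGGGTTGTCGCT
Gpr65, chr12:98268385-98268634: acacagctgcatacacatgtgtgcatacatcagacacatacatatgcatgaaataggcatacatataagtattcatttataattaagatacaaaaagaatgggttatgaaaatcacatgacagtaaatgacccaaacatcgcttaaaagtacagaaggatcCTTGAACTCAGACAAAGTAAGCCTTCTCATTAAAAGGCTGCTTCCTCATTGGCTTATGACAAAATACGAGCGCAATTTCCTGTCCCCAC
The Gpr4 stretch was 61.2% G or C and held 9 CpG, and 74.8% of the 32851 promoters of this length were lower in G and C. The Gpr65 stretch was 36.8% G or C and held 3 CpG, and only 6.74% of promoters were lower. The median promoter had 52.4% G or C and 6 CpG. None of the motifs searched, on both strands, was found in either run: T-box TCACACC, Runx TGTGGTT, CREB TGACGTCA and its core TGACG, AP-1 TGANTCA, PU.1 GAGGAAGT, C/EBP TTGCNNAA, IRF GAAANNGAA and Nr4a AAAGGTCA. Of all promoters, 3.33%, 4.4%, 1.55%, 17.8%, 6.75%, 2.44%, 9.56%, 7.13% and 1.34% hold these motifs, in that order.

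RNA-seq depth was between 20993220 and 29006549 counts on genes, and ATAC-seq depth between 7270164 and 10081555 reads in windows. Summed over 7 cDC1 markers (Xcr1, Clec9a, Irf8 and others), RNA was at 5320 to 6470 CPM in spleen cDC1s and at 146 to 591 CPM in spleen cDC2s, and at 3219 to 5988 CPM against 162 to 636 CPM in MLN. The RNA-seq libraries fell into a pair of classes that cross the cDC1 and T-bet- cDC2 subsets, by the rank correlation over genes between a library's deviation from its tissue mean and the G and C content of the richest 100 bases of each transcript. Spleen T-bet- replicates 1 and 2 and cDC1 replicate 3 had correlations of -0.46, -0.30 and -0.30, and the other spleen libraries of 0.19 to 0.33. In MLN, T-bet- replicate 2 and cDC1 replicates 2 and 3 had correlations of 0.20 to 0.25 and the others of -0.31 to -0.03. All spleen T-bet+ libraries were thus in the class with higher correlations, and both MLN T-bet+ libraries in the class with lower ones. The correlations were taken within each tissue, so the classes are not on the same scale between tissues.

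Gpr4 RNA set the spleen T-bet- cDC2s apart from the other spleen subsets. It was at 230, 201 and 210 CPM in spleen cDC1s, at 204, 149 and 131 CPM in T-bet+ cDC2s, and at 14.1, 9.92 and 9.97 CPM in T-bet- cDC2s. All T-bet- libraries lay far below every library of the other spleen subsets, and the T-bet+ and cDC1 values overlapped. The log2 fold change was 3.83 (SE 0.26, n = 3 and 3) for T-bet+ over T-bet- cDC2s, -4.24 (SE 0.26) for T-bet- cDC2s over cDC1s and -0.40 (SE 0.23) for T-bet+ cDC2s over cDC1s. The share of genes with a lower per-length RNA level (RPKM) than Gpr4 was 95.1 to 95.4% in spleen cDC1s, 91.9 to 94.5% in T-bet+ cDC2s and 51.6 to 62.1% in T-bet- cDC2s. In bulk samples such as these, fewer cells with the RNA and less RNA per cell cannot be told apart.

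The low Gpr4 level of spleen T-bet- cDC2s was found in libraries of both G and C classes. Replicate 3, in the same class as all T-bet+ libraries, was at 9.97 CPM, and replicates 1 and 2, in the other class, at 14.1 and 9.92 CPM. The T-bet+ over T-bet- log2 fold change was 3.63 to 4.02 as each spleen library was left out in turn.

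Gpr65 was higher in spleen cDC1s than in either spleen cDC2 subset and overlapped between the cDC2 subsets. Its RNA was at 296, 385 and 331 CPM in spleen cDC1s, at 169, 107 and 97.7 CPM in T-bet- cDC2s and at 147, 163 and 96.5 CPM in T-bet+ cDC2s. The lowest cDC1 library was above every cDC2 library, and the cDC2 ranges overlapped. The log2 fold change was -1.43 (SE 0.28, n = 3 and 3) for T-bet- cDC2s over cDC1s, -1.31 (SE 0.28) for T-bet+ cDC2s over cDC1s and 0.12 (SE 0.27) for T-bet+ over T-bet- cDC2s. Per length, more than 92% of genes were lower than Gpr65 in each spleen library.

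In spleen, Gpr132 ran the other way from Gpr65, with its highest values in T-bet- cDC2s, but there it moved with the G and C class. It was at 228, 225 and 84.4 CPM in spleen T-bet- cDC2s, at 110, 101 and 89.5 CPM in T-bet+ cDC2s and at 55.0, 81.2 and 133 CPM in cDC1s. All pairs of spleen subsets overlapped. The libraries of the lower class (T-bet- replicates 1 and 2, cDC1 replicate 3) were at 228, 225 and 133 CPM, above every library of the higher class, which reached 110 CPM. The T-bet+ over T-bet- log2 fold change was -0.84 (SE 0.41, n = 3 and 3) and became 0.09 with the class as a term in the fit. For T-bet+ cDC2s over cDC1s it was 0.16 (SE 0.41) and became 0.63 with that term, and for T-bet- cDC2s over cDC1s it was 1.00 (SE 0.41) and became 0.54. All T-bet+ libraries were in the higher class, and T-bet- replicate 3 was the only T-bet- library there. Class and subset were thus partly confounded. The values with the term draw on that library and on the class shift within T-bet- cDC2s and cDC1s.

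Over all genes tested in spleen, 5.38% passed an adjusted p of 0.05 for T-bet+ over T-bet- cDC2s, 18.2% for T-bet+ cDC2s over cDC1s and 15.9% for T-bet- cDC2s over cDC1s (edgeR's quasi-likelihood test, Benjamini-Hochberg adjustment). The libraries of the compared groups did not overlap for 27.0%, 39.9% and 29.8% of genes in these comparisons, and for 1 (Gpr4), 1 (Gpr65) and 2 (Gpr4 and Gpr65) of the 3 receptors. These shares are given for scale only, since the receptors were chosen on the same contrasts.

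**Figure D1:**
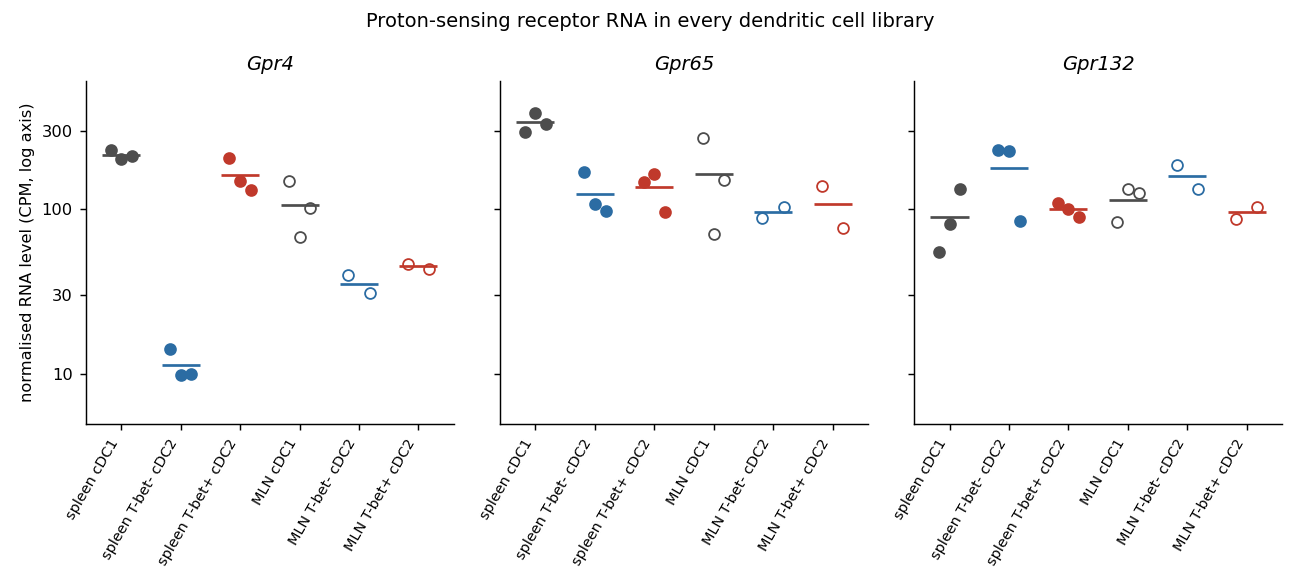
RNA level (CPM, log axis) of Gpr4, Gpr65 and Gpr132 in each of the 16 libraries, by tissue and subset, with points for libraries, filled for spleen and open for MLN, and lines for group means. Gpr4 is at 9.92 to 14.1 CPM in spleen T-bet- cDC2s and at 131 to 230 CPM in the other spleen libraries.

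In MLN, Gpr4 was at 149, 68.0 and 102 CPM in cDC1s, at 46.4 and 43.6 CPM in T-bet+ cDC2s and at 39.8 and 31.0 CPM in T-bet- cDC2s, so that the subsets did not overlap. Its log2 fold change was 0.31 (SE 0.39, n = 2 and 2) for T-bet+ over T-bet- cDC2s, within about 1 SE of no difference, and -1.22 (SE 0.37) and -1.53 (SE 0.38) for T-bet+ and T-bet- cDC2s over cDC1s. Without T-bet- replicate 1 the first of these was 0.54, and with the G and C class as a term it was -0.04.

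Gpr65 was at 272, 70.3 and 151 CPM in MLN cDC1s, at 139 and 77.5 CPM in T-bet+ cDC2s and at 89.1 and 104 CPM in T-bet- cDC2s. Every pair of subsets overlapped, and cDC1 replicate 2, the lowest of all, lay below each cDC2 library. The log2 fold changes were 0.13 (SE 0.59) for T-bet+ over T-bet- cDC2s, -0.60 (SE 0.55) for T-bet+ cDC2s over cDC1s and -0.73 (SE 0.55) for T-bet- cDC2s over cDC1s. With the class as a term, the first was -0.32. Without cDC1 replicate 1, the highest library, the differences from cDC1s were 0.03 for T-bet+ and -0.10 for T-bet- cDC2s, and without cDC1 replicate 2 they were -0.95 and -1.10. Without T-bet+ replicate 1 or 2 the former was -1.06 or -0.22.

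Gpr132 was at 186 and 133 CPM in MLN T-bet- cDC2s, at 87.9 and 104 CPM in T-bet+ cDC2s and at 83.2, 133 and 125 CPM in cDC1s. Unlike in spleen, the lower G and C class held both the highest library, T-bet- replicate 1, and the lowest, cDC1 replicate 1. Both T-bet- libraries were above both T-bet+ libraries. The log2 fold change for T-bet+ over T-bet- was -0.78 (SE 0.31, n = 2 and 2), and -0.48 without T-bet- replicate 1. It stayed at -1.0 to -0.48 over the 16 alternatives, the class as a term among them. It was -0.21 (SE 0.29) for T-bet+ cDC2s over cDC1s and 0.57 (SE 0.28) for T-bet- cDC2s over cDC1s, the latter at 0.27 without T-bet- replicate 1 and 0.79 without T-bet- replicate 2.

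Of all genes tested in MLN, 0.0% passed the adjusted p for T-bet+ over T-bet- cDC2s (0 of 15298 by edgeR, with 1444 at an unadjusted p under 0.05, DESeq2 calling 130 higher and 262 lower, and edgeR 13 higher and 117 lower with the number in the library names as a block), 6.22% for T-bet+ cDC2s over cDC1s and 5.79% for T-bet- cDC2s over cDC1s. Groups did not overlap for 40.9%, 40.2% and 39.8% of genes, and for 2 (Gpr4 and Gpr132), 1 (Gpr4) and 2 (Gpr4 and Gpr132) of the 3 receptors. For Gpr132 in T-bet- cDC2s over cDC1s the gap was narrow, with the closest libraries at 133.4 and 132.5 CPM.

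Between tissues, Gpr4 differed in opposite directions in different subsets. The log2 fold change of spleen over MLN was 1.01 (SE 0.27) in cDC1s and 1.84 (SE 0.33) in T-bet+ cDC2s, with every spleen library above every MLN library, and -1.64 (SE 0.30) in T-bet- cDC2s, with every spleen library below both MLN libraries. The T-bet+ over T-bet- difference was larger in spleen than in MLN by 3.48 on the log2 scale (SE 0.45). For Gpr65 spleen over MLN was 1.04 (SE 0.40) in cDC1s, without overlap, 0.37 (SE 0.45) for T-bet- and 0.32 (SE 0.45) for T-bet+ cDC2s, both with overlap. The cDC1 value for Gpr65 was 1.68 without MLN cDC1 replicate 1 and 0.67 without MLN cDC1 replicate 2. For Gpr132 it was -0.34 (SE 0.37), 0.17 (SE 0.41) and 0.06 (SE 0.41) in the same order, all with overlap, and the cDC1 value was -0.05 without spleen cDC1 replicate 1 and -0.74 without spleen cDC1 replicate 3. Tissue and any difference in handling between tissues cannot be told apart. In T-bet+ cDC2s the G and C class changed with the tissue too, so these cannot be told apart either.

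Markers of mature migratory dendritic cells also differed between tissues. The 4 genes of that list, Ccr7, Fscn1, Ccl22 and Cacnb3, summed to 1517 to 2611 CPM in spleen cDC1s against 4064, 14797 and 14427 CPM in MLN cDC1s, and to 3681 to 5001 CPM in spleen against 11923 and 12961 CPM in MLN T-bet- cDC2s. In T-bet+ cDC2s they summed to 4199 to 4815 CPM in spleen and to 2885 and 10674 CPM in MLN, so that the tissues overlapped in this subset alone. MLN cDC1 replicate 1, lowest in this sum among the MLN cDC1s, was the highest of them for Gpr4 and Gpr65 and the lowest for Gpr132. The part of these cells in the tissue values was not tested.

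Of all genes, 11.7% passed the adjusted p for spleen over MLN cDC1s, 5.95% for the T-bet- and 5.09% for the T-bet+ subset, and 29.2%, 40.1% and 49.9% did not overlap. Of the 3 receptors, 2 did not overlap in cDC1s (Gpr4 and Gpr65) and 1 in each cDC2 subset (Gpr4).

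Set in order over the 6 groups, the groups by mean Gpr4 RNA level were, from the highest, spleen cDC1 (214 ± 15.1 CPM), spleen T-bet+ cDC2 (161 ± 38.1), MLN cDC1 (106 ± 40.5), MLN T-bet+ cDC2 (45.0 ± 2.00), MLN T-bet- cDC2 (35.4 ± 6.27) and spleen T-bet- cDC2 (11.3 ± 2.41, all SD), an 18.9-fold span from top to bottom. Spleen T-bet+ cDC2s overlapped with both cDC1 groups beside them, and the 3 steps below MLN cDC1s were without overlap. For Gpr65 the order was spleen cDC1 (337 ± 45.0 CPM), MLN cDC1 (164 ± 102), spleen T-bet+ cDC2 (136 ± 34.9), spleen T-bet- cDC2 (125 ± 38.9), MLN T-bet+ cDC2 (108 ± 43.7) and MLN T-bet- cDC2 (96.5 ± 10.5). Only the first step was without overlap, and the span was 3.49-fold. For Gpr132 the order was spleen T-bet- cDC2 (179 ± 82.1 CPM), MLN T-bet- cDC2 (160 ± 37.1), MLN cDC1 (114 ± 26.6), spleen T-bet+ cDC2 (99.9 ± 10.1), MLN T-bet+ cDC2 (95.7 ± 11.1) and spleen cDC1 (89.6 ± 39.5). Its span was 2.00-fold, with 1 step without overlap, between MLN T-bet- cDC2s and MLN cDC1s. That step was narrow, with the closest libraries at 133.4 and 132.5 CPM.

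Compared with each other per length, Gpr65 was the most abundant of the receptors in spleen cDC1s, at a mean RPKM of 163 ± 21.7 against 74.2 ± 5.24 for Gpr4 and 33.0 ± 14.6 for Gpr132 (SD, n = 3). In spleen T-bet+ cDC2s Gpr65 was at 65.6 ± 16.9, Gpr4 at 56.0 ± 13.2 and Gpr132 at 36.8 ± 3.71 RPKM. In spleen T-bet- cDC2s Gpr132 was at 66.0 ± 30.3 and Gpr65 at 60.3 ± 18.8, and Gpr4 was at 3.93 ± 0.835 RPKM.

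**Figure D2:**
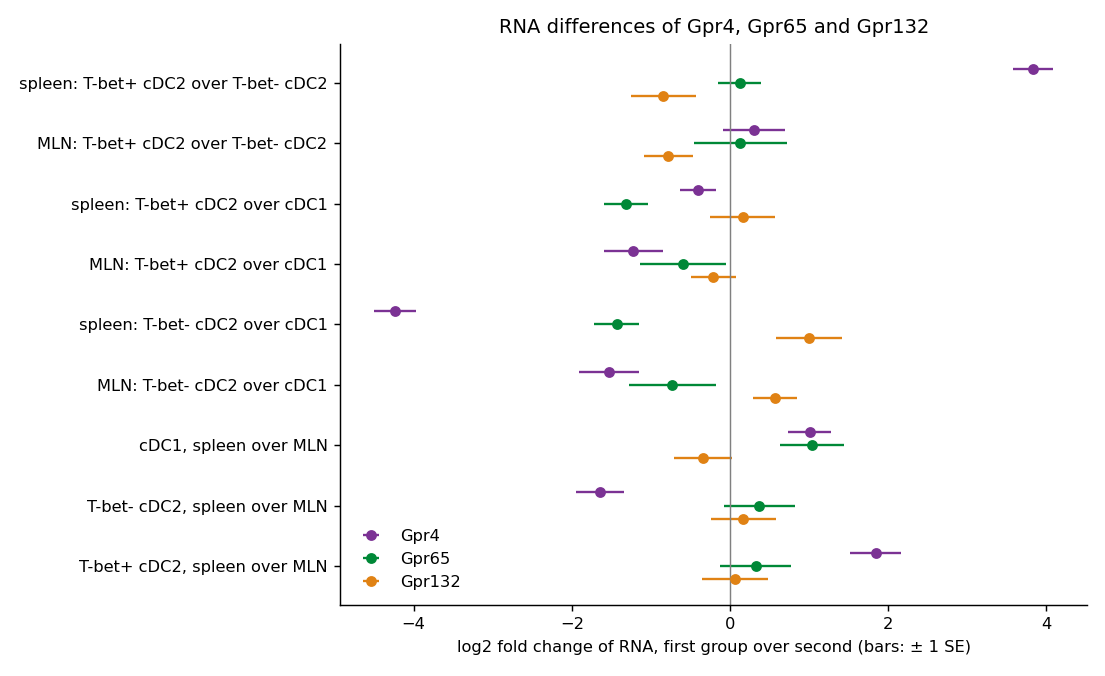
Log2 fold change of RNA (bars, 1 SE) for Gpr4, Gpr65 and Gpr132 in the 6 comparisons between subsets and the 3 between tissues. Gpr4 stands at 3.83 and -4.24 in the spleen comparisons that involve T-bet- cDC2s, and the Gpr65 and Gpr132 values lie between -1.43 and 1.04.

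Opa3, the neighbour of Gpr4, was tested in the same way. Its RNA did not separate T-bet+ from T-bet- spleen cDC2s (log2 fold change 0.36, SE 0.20, edgeR adjusted p = 0.39). It was higher in both cDC2 subsets than in spleen cDC1s, by 1.54 (SE 0.20, edgeR adjusted p = 0.00072) in T-bet+ and 1.19 (SE 0.20, edgeR adjusted p = 0.0034) in T-bet- cDC2s, where the Gpr4 values were -0.40 and -4.24. Between tissues, Opa3 was higher in spleen than in MLN T-bet+ cDC2s by 1.58 (SE 0.29, edgeR adjusted p = 0.0099), where Gpr4 was at 1.84. In T-bet- cDC2s Opa3 was higher in spleen by 1.39 (SE 0.29, edgeR adjusted p = 0.013), where Gpr4 was at -1.64. In cDC1s its spleen over MLN value was 0.57 (SE 0.25, edgeR adjusted p = 0.14), without overlap, where Gpr4 was at 1.01.

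Markers of other cells were read beside the receptors. A list of 10 endothelial genes summed to 77.9 to 154 CPM in spleen cDC1s, 97.8 to 160 CPM in T-bet- and 94.3 to 103 CPM in T-bet+ cDC2s, ranges that overlap and do not follow Gpr4. Most of that sum was Pecam1, and the endothelial cadherin Cdh5 had means of 0.197 to 0.333 CPM in the spleen subsets while Cldn5 was at 0 in all spleen libraries. Summed RNA of 7 monocyte and macrophage genes was at 7984 to 12196 CPM in spleen T-bet- cDC2s, 1033 to 1217 CPM in T-bet+ cDC2s and 1118 to 1668 CPM in cDC1s, so its high group was the group in which Gpr4 was lowest and Gpr132 highest in spleen. In MLN the list was at 7481 to 11354 CPM in T-bet- cDC2s, 950 to 1178 CPM in T-bet+ cDC2s and 515 to 674 CPM in cDC1s. Most of the sum in T-bet- cDC2s of both tissues was Lyz2. Mean Ly6c2 was highest in cDC1s, at 4.75 against 2.67 CPM in T-bet- cDC2s in spleen and 9.49 against 5.33 CPM in MLN. Adgre1 had means of 425 CPM in T-bet- and 373 CPM in T-bet+ cDC2s of spleen, and of 89 and 276 CPM in MLN. The other genes of the list had their highest mean in T-bet- cDC2s in both tissues. The part of this list in the Gpr4 and Gpr132 values was not tested.

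The genes whose RNA ran most like each receptor over the 16 libraries were taken by Pearson's r of log2 CPM among 10456 other genes. For Gpr4 they were Foxm1 (r = 0.90), Sp140 (0.88), Hgfac (0.87), Ccser1 (0.87) and Ms4a1 (0.85). For Gpr65 they were Slc25a12 (0.92), Slc9a9 (0.92), Zfp422 (0.91), Dph6 (0.91) and Tmem229b (0.90), and for Gpr132 Ubl7 (0.90), Tmem39b (0.90), Zc3h12a (0.88), Vps13c (0.87) and Mocs1 (0.85). None of the receptors was among the 5 genes most like another: r was 0.58 between Gpr4 and Gpr65, -0.57 between Gpr4 and Gpr132 and -0.37 between Gpr65 and Gpr132. The libraries fall into 6 groups and share their G and C class, so these r values describe the groups as much as single libraries.

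Chromatin at the Gpr4 start differed between the spleen subsets. The 150-base window at chr7:19212461-19212610, centred 2 bases before the annotated start and reaching into the first exon (untranslated), was 75.3% G or C. It held 8.20 and 9.14 CPM of ATAC reads in cDC1s, 11.3 and 9.31 CPM in T-bet+ cDC2s and 2.47 and 1.82 CPM in T-bet- cDC2s, from 69 and 70, 104 and 89, and 20 and 18 reads. Both T-bet- libraries were below all others, and the T-bet+ and cDC1 libraries lay close together. The log2 fold change was 2.27 (SE 0.32, edgeR adjusted p = 1.4e-07) for T-bet+ over T-bet- cDC2s, which is 4.83-fold, and -2.02 (SE 0.33, edgeR adjusted p = 8.7e-07) for T-bet- cDC2s over cDC1s. For T-bet+ cDC2s over cDC1s it was 0.25 (95% interval -0.27 to 0.77, edgeR adjusted p = 0.53). Both calls held under each of the 15 alternatives run, with ranges of 2.05 to 2.49 and -2.24 to -1.79 over left-out libraries.

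**Figure D3:**
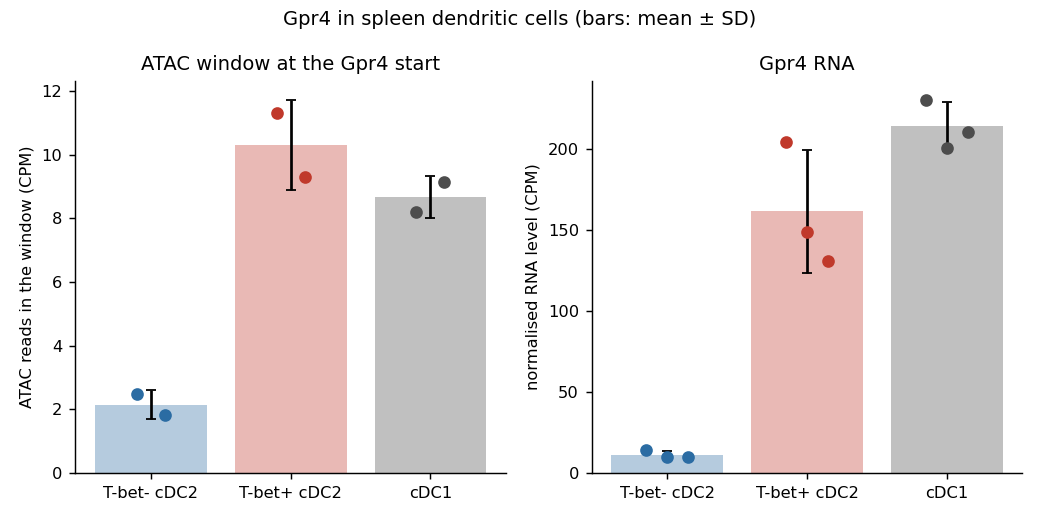
ATAC reads (CPM) in the window at the Gpr4 start in 2 libraries a subset (left) and Gpr4 RNA (CPM) in 3 libraries a subset (right), spleen, with points for libraries and bars for mean ± SD. T-bet- cDC2s are lowest in both panels, at 1.82 to 2.47 CPM and 9.92 to 14.1 CPM.

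A window in the Gpr4 intron, 5181 bases after the start, followed another order. It held 5.35 and 5.75 CPM in cDC1s, 8.75 and 8.30 CPM in T-bet- cDC2s and 14.8 and 13.3 CPM in T-bet+ cDC2s, and the subsets did not overlap. The difference of T-bet+ cDC2s over cDC1s passed (1.34, SE 0.26, edgeR adjusted p = 2.4e-05), in each of the 15 alternatives too. T-bet+ over T-bet- cDC2s (0.72, SE 0.24, edgeR adjusted p = 0.041) and T-bet- cDC2s over cDC1s (0.62, SE 0.27, edgeR adjusted p = 0.084) did not pass the adjusted p of 0.01 set for windows. Its sequence (mm10, plus strand), with no match to the motifs above, is shown as the intronic counterpart of the start.
Gpr4 intron, chr7:19217645-19217794: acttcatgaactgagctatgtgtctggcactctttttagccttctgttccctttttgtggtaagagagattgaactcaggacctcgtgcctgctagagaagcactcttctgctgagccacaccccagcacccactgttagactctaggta
The other 3 Gpr4 windows, at 5432, 5716 and 8996 bases, passed in no comparison, with log2 fold changes of -0.27 to 0.89.

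At Gpr65, 0 of 4 windows passed in any comparison by edgeR (for T-bet+ over T-bet- cDC2s the adjusted p values were 0.35 to 0.92). Of all windows, 6.28% passed in that comparison, 23.0% for T-bet+ and 17.9% for T-bet- cDC2s over cDC1s. The window over its start, chr12:98268546-98268695, held 16.3 and 19.1 CPM in cDC1s, 16.5 and 16.2 CPM in T-bet- cDC2s and 16.3 and 17.6 CPM in T-bet+ cDC2s. These ranges overlap, with log2 fold changes of 0.05 (95% interval -0.35 to 0.45) for T-bet+ over T-bet- cDC2s and -0.11 (-0.52 to 0.30) for T-bet- cDC2s over cDC1s, the comparison in which Gpr65 RNA was at -1.43. A second window, in the intron 214 bases after the start, held 6.77 and 8.23, 9.74 and 8.71, and 7.61 and 9.72 CPM in the same order, with 0.30 (-0.23 to 0.82) for T-bet- cDC2s over cDC1s.

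At Gpr132, 4 of 9 windows passed for T-bet+ cDC2s over cDC1s, where 23.0% of all windows did. For T-bet- cDC2s over cDC1s 2 passed, where 17.9% did. Between the cDC2 subsets 0 passed by edgeR (adjusted p of 0.11 to 0.95), where 6.28% of all windows did. The windows 745 and 1525 bases after the first start lie in the same peak. The window 1525 bases after the first start held 22.2 and 23.6 CPM in cDC1s, 41.4 and 38.8 CPM in T-bet- cDC2s and 47.4 and 40.6 CPM in T-bet+ cDC2s. All cDC2 libraries were above both cDC1 libraries, with log2 fold changes of 0.94 (SE 0.17, edgeR adjusted p = 8.6e-06) for T-bet+ and 0.81 (SE 0.17, edgeR adjusted p = 0.00018) for T-bet- cDC2s over cDC1s. The T-bet- call was lost without cDC1 replicate 1. The window 3201 bases after the start held 30.4 and 28.5 CPM in cDC1s, 45.0 and 41.4 CPM in T-bet- cDC2s and 62.5 and 46.7 CPM in T-bet+ cDC2s, with 0.89 (SE 0.17, edgeR adjusted p = 1.4e-05) for T-bet+ and 0.55 (SE 0.17, edgeR adjusted p = 0.0096) for T-bet- cDC2s over cDC1s. The latter stood just past the threshold and was lost when any T-bet- or cDC1 library was left out, at 0.49 to 0.62.

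Both of these intronic windows hold an AP-1 motif, TGANTCA, which 7.90% of all windows hold. They are shown on the minus strand, the strand of Gpr132, with the motif in capitals, at bases 68 to 74 and 7 to 13 of the runs.
Gpr132, chr12:112866628-112866777: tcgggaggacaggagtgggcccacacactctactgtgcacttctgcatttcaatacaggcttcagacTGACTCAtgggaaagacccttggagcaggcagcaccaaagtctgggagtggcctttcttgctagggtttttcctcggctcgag
Gpr132, chr12:112864952-112865101: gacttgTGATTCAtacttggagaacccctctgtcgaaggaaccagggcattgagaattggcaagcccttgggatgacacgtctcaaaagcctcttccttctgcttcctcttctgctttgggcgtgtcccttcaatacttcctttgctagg
A further window 745 bases after the start held 35.4 and 32 CPM in cDC1s, 40.6 and 38.4 CPM in T-bet- cDC2s and 61.8 and 42.7 CPM in T-bet+ cDC2s, and passed for T-bet+ cDC2s over cDC1s (0.63, SE 0.17, edgeR adjusted p = 0.0022). That call was lost without T-bet+ replicate 1 or either cDC1 library, with values of 0.35 to 0.88. A window 27821 bases from the start, beyond the 3′ end of the gene, held 10.1 and 13.7 CPM in cDC1s, 14.5 and 16.7 CPM in T-bet- cDC2s and 21.5 and 17.0 CPM in T-bet+ cDC2s (0.70, SE 0.22, edgeR adjusted p = 0.0094). It was lost in 9 of 15 alternatives, among them without T-bet- replicate 1, T-bet+ replicate 1 or either cDC1 library (0.50 to 0.94). A window over an untranslated exon, 1058 bases after the start, held 8.32 and 7.31, 5.42 and 7.39, and 9.79 and 8.05 CPM in the same order of subsets and passed in no comparison. No window lay at the second annotated start, 112860952.

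Over the 18 windows, 1 passed for T-bet+ over T-bet- cDC2s, where 6.28% of all windows did, 5 for T-bet+ cDC2s over cDC1s, where 23.0% did, and 3 for T-bet- cDC2s over cDC1s, where 17.9% did. All were higher in the first-named subset but for the Gpr4 start in T-bet- cDC2s. The Gpr4 start differed in the same direction as the Gpr4 RNA values, which came from separate libraries. Gpr65 RNA was higher in cDC1s without a window of its own that passed, and the Gpr132 windows that passed were higher in cDC2s while Gpr132 RNA overlapped between spleen subsets.

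**Figure D4:**
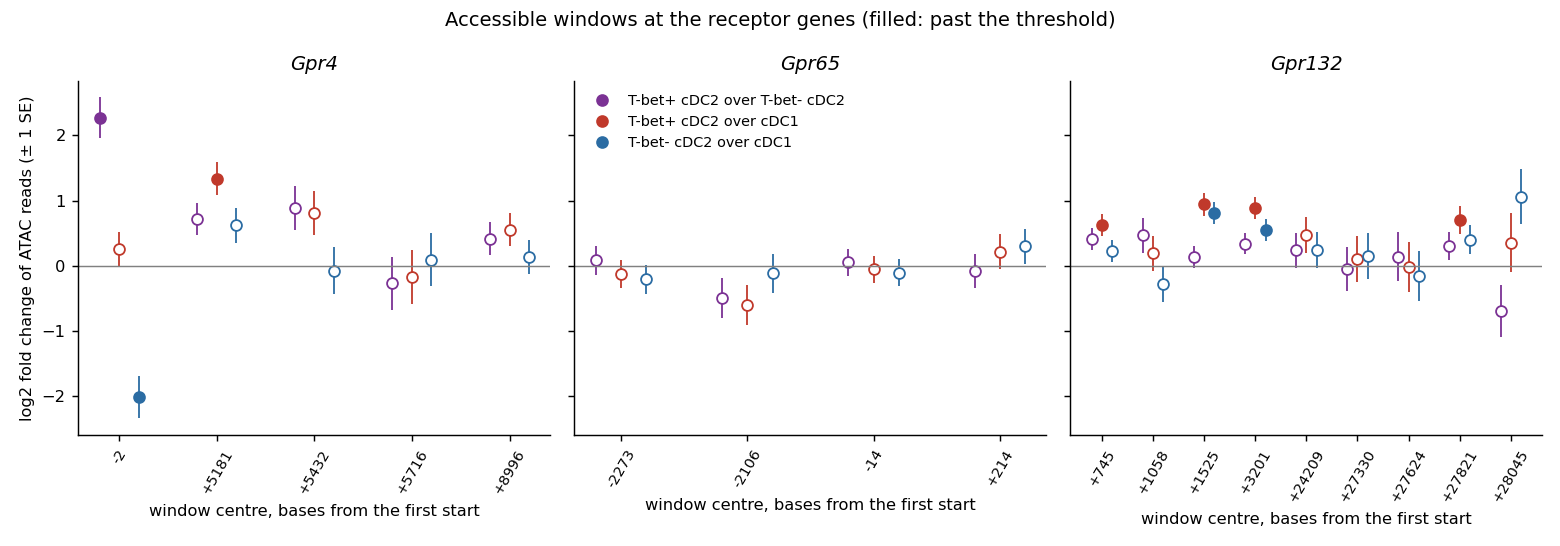
Log2 fold change of ATAC reads (bars, 1 SE) in each of the 18 windows closest to Gpr4, Gpr65 or Gpr132, by distance in bases from the first annotated start, for the 3 spleen comparisons, with filled points past adjusted p of 0.01 and a log2 fold change of 0.5. The Gpr4 start stands at 2.27 and -2.02, no Gpr65 point is filled, and the filled Gpr132 points lie between 0.55 and 0.94.

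Within 50000 bases of the receptor genes, whatever the closest gene, 91 of 95 windows had enough reads to be tested. Around Gpr65, 13 of 34 windows passed for T-bet+ cDC2s over cDC1s (beside 23.0% of all windows), 8 for T-bet- cDC2s over cDC1s (beside 17.9%) and 3 for T-bet+ over T-bet- cDC2s (beside 6.28%). In the comparisons with cDC1s, 10 and all 8 were lower in the cDC2s and lay at -45145 to -15994 bases from the Gpr65 start, closest to Galc, which codes for a lysosomal enzyme. The window at -15994 bases was at -3.23 (edgeR adjusted p = 1.1e-10) and -3.66 (edgeR adjusted p = 2.1e-11). The other 3 for T-bet+ cDC2s over cDC1s were higher in T-bet+ cDC2s, at 1.51 to 2.81, and lay 42934 to 50540 bases after the start, closest to Gm47567. The 3 that passed between the cDC2 subsets were higher in T-bet+ cDC2s too, at 1.22 in a window at -13084 bases closest to Galc, and at 1.57 and 2.05 in windows at 42934 and 50540 bases. Around Gpr4, 2 of 25 windows passed for T-bet+ over T-bet- cDC2s, the start and 1 window closest to Vasp (0.88, edgeR adjusted p = 0.00018). Around Gpr132, 0 of 32 passed in that comparison, and 3 windows closest to Jag2, the gene of a Notch ligand, were lower in T-bet+ cDC2s than in cDC1s (-1.73 to -1.02).

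Genes tied to acid sensing were read from 7 lists, with 102 genes in all. Among these were lists for other acid sensors, Gs and cyclic AMP signalling, phosphodiesterases, Gi and Gq, desensitization, and proton and lactate handling. Not all of these genes lie downstream of the receptors: 10 are other acid sensors and 23 handle protons and lactate. The lists were drawn up with earlier results of these data known, so their calls are no independent test. Between T-bet+ and T-bet- spleen cDC2s, 5 of 81 tested genes passed, 6.17% beside 5.38% of all genes, and their median log2 fold change was 0.16 beside -0.01 for all genes. Rgs3, which shortens G protein signals, was higher in T-bet+ cDC2s at 107 ± 9.53 against 21.8 ± 14.8 CPM (2.29, SE 0.48, edgeR adjusted p = 0.026), as was Pde7a, which degrades cyclic AMP (1.78, SE 0.40, edgeR adjusted p = 0.032). Adcy4, an adenylyl cyclase, was lower at 1.27 ± 0.964 against 16.3 ± 5.40 CPM (-3.68, SE 0.57, edgeR adjusted p = 0.0065), as were Arrb1, beta-arrestin 1 (-2.01, SE 0.39, edgeR adjusted p = 0.019), and Rgs10 (-1.04, SE 0.25, edgeR adjusted p = 0.045). The count was 1 without T-bet- replicate 1 or any of the T-bet+ libraries, 3 without T-bet- replicate 2 or cDC1 replicate 2, and 9 without T-bet- replicate 3. The Adcy4 call held in each of 18 alternatives, and Pde7a lost its call in 7, Rgs3 and Arrb1 in 8 each and Rgs10 in 9.

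Against cDC1s more of these genes differed. For T-bet+ cDC2s 27 of 81 passed (33.3% beside 18.2% of all genes), 16 higher and 11 lower, and for T-bet- cDC2s 20 of 81 (24.7% beside 15.9%), 11 higher and 9 lower, with medians of 0.08 and -0.16. In both cDC2 subsets the monocarboxylate transporter Slc16a7 was higher than in cDC1s (4.09, SE 0.50, edgeR adjusted p = 0.00046 in T-bet+; 4.77, SE 0.51, edgeR adjusted p = 0.00022 in T-bet-), and phospholipase C Plcb4 (-4.60, SE 0.37, edgeR adjusted p = 3.7e-05; -3.53, SE 0.35, edgeR adjusted p = 0.00014) and the G protein subunit Gna15 (-2.74, SE 0.49, edgeR adjusted p = 0.0039; -2.52, SE 0.49, edgeR adjusted p = 0.0067) were lower. Hvcn1, a proton channel, was higher in both too, at 89.5 ± 14.5 CPM in T-bet+ cDC2s against 5.82 ± 2.54 in cDC1s (3.95, SE 0.38, edgeR adjusted p = 1e-04) and at 3.56 (SE 0.37, edgeR adjusted p = 0.00019) for T-bet- cDC2s. So was the lactate exporter Slc16a3, at 105 ± 32.7 in T-bet- cDC2s against 7.19 ± 1.60 CPM in cDC1s (3.87, SE 0.32, edgeR adjusted p = 4.7e-05) and at 2.84 (SE 0.31, edgeR adjusted p = 0.00023) for T-bet+ cDC2s. Rapgef4, an exchange factor opened by cyclic AMP, was higher in T-bet+ cDC2s (4.04, SE 1.06, edgeR adjusted p = 0.026), and Adcy4 and Arrb1 were lower (-4.50, SE 0.59, edgeR adjusted p = 0.00065; -2.49, SE 0.40, edgeR adjusted p = 0.0022). The endosomal proton exchanger Slc9a9, 1 of the 5 genes most like Gpr65, was lower in both (-1.89, SE 0.31, edgeR adjusted p = 0.0022 in T-bet+; -2.21, SE 0.31, edgeR adjusted p = 0.0011 in T-bet-). The adenylyl cyclase Adcy6 was lower in T-bet- cDC2s (-2.03, SE 0.57, edgeR adjusted p = 0.039), a call lost in 10 of 18 alternatives, with -1.18 without cDC1 replicate 3. Rapgef3 and Pde7b were at 0 in all spleen cDC1 libraries, with Rapgef3 at 0.590 ± 0.361 CPM in T-bet+ (edgeR adjusted p = 0.014) and 0.340 ± 0.238 in T-bet- cDC2s (edgeR adjusted p = 0.028) and Pde7b at 0.855 ± 0.404 CPM in T-bet- cDC2s (edgeR adjusted p = 0.016). By list, for T-bet+ over T-bet- cDC2s, T-bet+ cDC2s over cDC1s and T-bet- cDC2s over cDC1s in turn, 3, 7 and 2 of 13 desensitization genes passed, 0, 9 and 7 of 19 for proton and lactate handling, 1, 5 and 4 of 20 for Gs and cyclic AMP, 1, 2 and 3 of 9 phosphodiesterases, 0, 2 and 2 of 8 for Gi and Gq and 0, 1 and 1 of 4 acid sensors. Against cDC1s, in T-bet+ and then T-bet- cDC2s, 25.0% and 20.0% of the Gs and cyclic AMP genes passed. For desensitization the shares were 53.8% and 15.4%, and for proton and lactate handling 47.4% and 36.8%. Without cDC1 replicate 2 the counts over all lists were 16 and 11, and without T-bet- replicate 1 the second was 13.

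**Figure D5:**
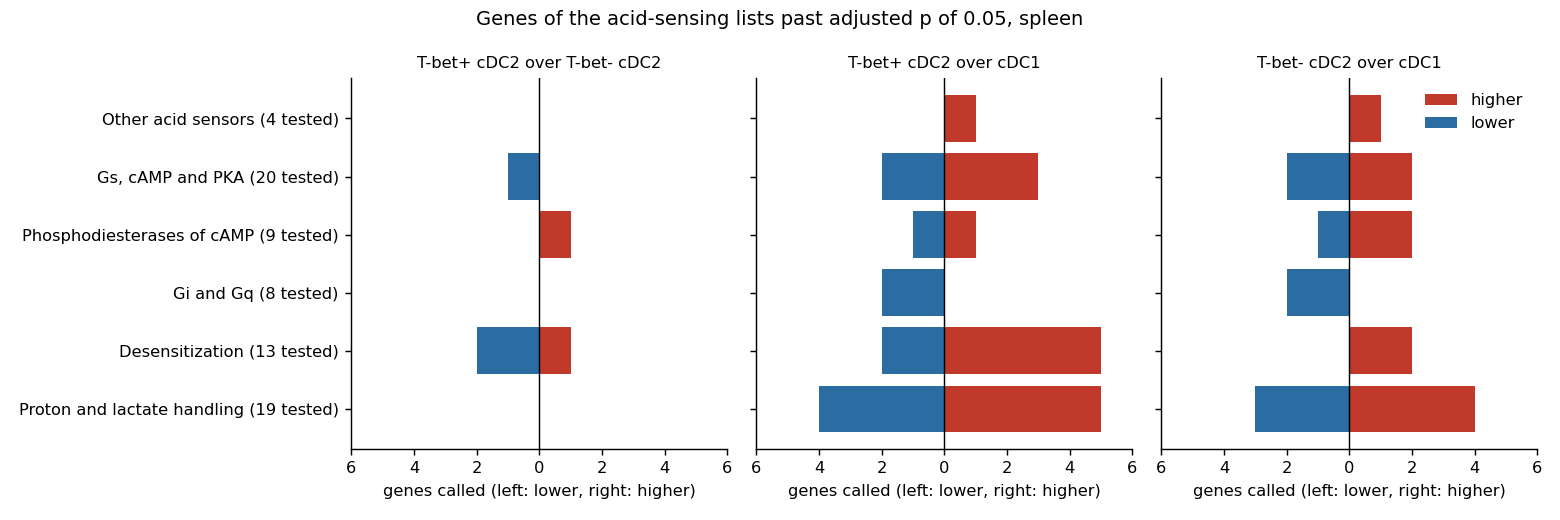
Number of genes past adjusted p of 0.05 in 6 of the lists, for the 3 spleen comparisons, with bars to the right for higher and to the left for lower in the first-named subset. For T-bet+ cDC2s over cDC1s, the desensitization list holds 5 higher and 2 lower genes and proton and lactate handling 5 higher and 4 lower.

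In MLN, 0 of 81 list genes passed between T-bet+ and T-bet- cDC2s by edgeR, with 9 at an unadjusted p under 0.05 and 1 called by DESeq2. Against cDC1s, 7 of 81 passed for each cDC2 subset, 8.64% beside 6.22% and 5.79% of all genes. Carbonic anhydrase Car2 (3.90 and 4.29, edgeR adjusted p = 0.016 and 0.012), Slc16a7 (2.79 and 2.70, edgeR adjusted p = 0.019 and 0.022), the lactate dehydrogenase subunit Ldhb (2.33 and 2.99, edgeR adjusted p = 0.032 and 0.014) and the CREB coactivator Crtc3 (1.92 and 2.24, edgeR adjusted p = 0.022 and 0.013) were higher (values for T-bet+, then T-bet- cDC2s), and Plcb4 was lower (-3.84 and -3.06, edgeR adjusted p = 0.0061 and 0.012). Adcy4 (0.0771 ± 0.109 CPM against 14.0 ± 3.45 CPM, edgeR adjusted p = 0.0036) and Arrb1 (-1.98, edgeR adjusted p = 0.028) were lower in T-bet+ cDC2s and the phosphodiesterase Pde8a (-2.18, edgeR adjusted p = 0.032) in T-bet- cDC2s. Of 17 alternatives for T-bet+ and 17 for T-bet- cDC2s, the calls were lost in 9 and 5 for Ldhb, 8 and 6 for Slc16a7, 6 and 5 for Crtc3, 4 and 3 for Car2 and 0 and 3 for Plcb4, and in 6 each for Arrb1 and Pde8a. Car2 in T-bet+ cDC2s was at 2.33 without T-bet+ replicate 2. For T-bet+ cDC2s the count was 4 without either T-bet- library or T-bet+ replicate 1, 11 without T-bet+ replicate 2 or cDC1 replicate 1 and 2 without cDC1 replicate 3. For T-bet- cDC2s it was 1 and 0 without T-bet- replicates 1 and 2, and 4 and 3 without cDC1 replicates 2 and 3.

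Between tissues, 22 of 84 list genes passed in cDC1s (26.2% beside 11.7% of all genes), 9 in T-bet- cDC2s (10.7% beside 5.95%) and 8 in T-bet+ cDC2s (9.52% beside 5.09%). Crem, a transcription factor induced by cyclic AMP, was higher in spleen in each subset (1.9 for cDC1s, 2.40 for T-bet- and 2.05 for T-bet+ cDC2s, edgeR adjusted p = 0.0045, 0.0048 and 0.012). Adcy6 (-3.60, -4.76 and -3.22, edgeR adjusted p = 0.0091, 0.0054 and 0.031), the bicarbonate transporter Slc4a8 (-3.59, -4.14 and -2.63, edgeR adjusted p = 0.0035, 0.0037 and 0.029) and the carbonic anhydrase Car13 (-4.28, -2.75 and -2.41, edgeR adjusted p = 0.0017, 0.019 and 0.039) were higher in MLN in each subset, and Car2 was higher in MLN in both cDC2 subsets (-4.67 and -4.16, edgeR adjusted p = 0.00091 and 0.0021). In T-bet+ cDC2s these differences rested largely on MLN replicate 2: the pair of MLN libraries held 17.8 and 113 CPM of Adcy6, 214 and 910 CPM of Slc4a8, 3.50 and 17.7 CPM of Car13 and 196 and 967 CPM of Car2. Without that replicate, which was also the higher in the migratory marker sum, the log2 fold changes were -1.33, -1.23, -0.81 and -2.58, and Car2 alone of these passed. The T-bet+ calls were lost in 6 of 23 alternatives for Adcy6 and Slc4a8 and in 10 for Car13. In cDC1s the kinase subunit Prkar2b (2.80, edgeR adjusted p = 0.039), the lactate transporter Slc16a1 (2.56, edgeR adjusted p = 0.0063) and the bicarbonate transporter Slc4a7 (1.98, edgeR adjusted p = 0.0081) were higher in spleen, and Adcy5 was at 0 in all spleen libraries and at 0.260 ± 0.123 CPM in MLN (edgeR adjusted p = 0.049), a call lost in 14 of 20 alternatives. In T-bet- cDC2s Slc16a3 (1.62, edgeR adjusted p = 0.021), the phosphodiesterase Pde4b (1.22, edgeR adjusted p = 0.020) and the acid-activated chloride channel Tmem206 (1.02, edgeR adjusted p = 0.042) were higher in spleen, and in T-bet+ cDC2s Adcy4 (1.27 ± 0.964 against 0.0771 ± 0.109 CPM, edgeR adjusted p = 0.023) and Slc16a1 (2.17, edgeR adjusted p = 0.045). Of 23 alternatives, calls were lost in 13 for Tmem206, 11 for Slc16a1 in T-bet+ cDC2s, 10 for Prkar2b and 5 each for Slc16a3 and Pde4b, and in 5 of 22 for Adcy4. In cDC1s the count was 14 without either MLN T-bet- library, 9 and 10 without MLN cDC1 replicates 2 and 3, and 9 and 8 without spleen cDC1 replicates 1 and 2. In T-bet- cDC2s it was 3 and 4 without MLN T-bet- replicates 1 and 2 and 4 without spleen T-bet- replicate 2, and in T-bet+ cDC2s 1 without MLN T-bet+ replicate 2 and 3 without any of the spleen T-bet+ libraries. For the T-bet+ over T-bet- difference in spleen minus that in MLN, where Gpr4 was at 3.48, 0 of 84 list genes passed by edgeR, with 4 at an unadjusted p under 0.05. Of all 16795 genes, edgeR called 1, with 847 at an unadjusted p under 0.05, and DESeq2 called 11 higher and 31 lower.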

How the data were processed

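RNA-seq was made from 16 libraries and ATAC-seq from 6. Per the labels and the study's methods, the authors aligned SMART-Seq reads with HISAT2 2.1.0, kept unique reads and deposited raw counts per gene (Rsubread, GENCODE). Whether counting used strand is not given in the sources used here. The authors mapped the ATAC-seq reads by Bowtie2 2.2.5, shifted insertion sites, called peaks with MACS2 2.1.1.20160309 on all replicates together and deposited read counts in 150-base windows around summits and in whole peaks. The deposited summit list also holds a column that appears to be a −log10 p-value, and the deposited peak list a score of 0 throughout, neither of which was used.

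Counts were tested with edgeR 4.0.16 (R 4.3.3; filter on low counts, TMM scaling, quasi-likelihood test, Benjamini-Hochberg adjustment over all features), by tissue for subsets, over all 16 libraries for tissues, and over the 6 ATAC-seq libraries for windows. A gene passed at an adjusted p of 0.05, and a window at an adjusted p of 0.01 with an absolute log2 fold change over 0.5. The fits had 6 residual degrees of freedom in spleen, 4 in MLN, 10 over both and 3 for ATAC-seq. Replicates are separate libraries, and p-values measure the spread between libraries only. CPM used TMM-scaled library sizes, and RPKM divided by exon length. DESeq2 1.42.0, other scalings, filters and thresholds, blocks and left-out libraries were alternatives. The steps were tested on simulated data.

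The receptors, gene lists and tests were chosen with earlier results of these data known. Named genes are the receptors, neighbours within 5000 bases, the 5 genes most like each receptor (mean log2 CPM of at least 1), and up to 4 list genes per direction with the largest absolute log2 fold change among those that passed. Windows are named where they passed or lay within 2000 bases of a start. Promoters are from RefSeq GRCm38.p6 and gene models from GENCODE M21. Another gene and a list named in the rule are not reported here.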

Additional observations from a re-analysis of the deposited data

Results flagged for a closer look

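For Gpr4, every spleen library was below the MLN libraries in T-bet- cDC2s and above them in cDC1s and T-bet+ cDC2s. The spleen over MLN log2 fold change differed by -2.65 between T-bet- cDC2s and cDC1s and by 3.48 between T-bet+ and T-bet- cDC2s, and neither difference was tested, since Gpr4 was chosen on these libraries. Pde7a also went opposite ways between tissues, with differences of 1.24 between T-bet+ cDC2s and cDC1s and 0.80 between T-bet+ and T-bet- cDC2s on the log2 scale. The first was not tested, and the second did not pass (SE 0.55, edgeR adjusted p = 0.95). For Adcy5, the difference of mean CPM between tissues differed by 0.734 CPM between T-bet+ cDC2s and cDC1s, at very low levels, and this was not tested.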

How the results depend on the processing

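Of the receptors' RNA log2 fold changes, 484 values under alternatives moved by less than the spread between replicates, 9 moved further and 2 reversed. With the G and C class of the library as a term, Gpr132 in spleen T-bet+ over T-bet- cDC2s reversed to 0.0905 and Gpr4 in MLN T-bet+ over T-bet- cDC2s to -0.0388. With that term Gpr132 was also at 0.63 in spleen T-bet+ cDC2s over cDC1s and 0.66 for T-bet+ cDC2s between tissues, Gpr65 at -0.32 in MLN T-bet+ over T-bet- cDC2s and Gpr4 at 2.2 for T-bet+ cDC2s between tissues. In T-bet+ cDC2s class and tissue coincide, so for the values between tissues the class shift was taken from the other subsets. Leaving out single libraries, Gpr4 in MLN T-bet+ over T-bet- cDC2s was 0.13 to 0.54, Gpr132 there -1.0 to -0.48, and Gpr132 for T-bet+ cDC2s between tissues -0.10 (without MLN T-bet+ replicate 1) to 0.19. Some values near 0 of groups that overlapped also turned sign without 1 library: Gpr65 in T-bet+ over T-bet- cDC2s (spleen, without T-bet- replicate 3 or T-bet+ replicate 2; MLN, without T-bet+ replicate 1), in MLN T-bet+ cDC2s over cDC1s (without cDC1 replicate 1) and in T-bet+ cDC2s between tissues (without MLN T-bet+ replicate 2), and Gpr132 in spleen T-bet+ cDC2s over cDC1s (without cDC1 replicate 1), in T-bet- cDC2s between tissues (without MLN T-bet- replicate 2 or spleen T-bet- replicate 1 or 2) and in T-bet+ cDC2s between tissues (also without spleen T-bet+ replicate 1). The cause was not tested.

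For the list genes, the counts are given for spleen T-bet+ over T-bet- cDC2s, T-bet+ cDC2s over cDC1s and T-bet- cDC2s over cDC1s, then the same in MLN, then cDC1s, T-bet- and T-bet+ cDC2s between tissues, naming those that moved by over 1.5 times. At an adjusted p of 0.01 they were 1, 15 and 9 in spleen, 2 and 0 for the MLN comparisons with cDC1s, and 9, 4 and 2 between tissues. With DESeq2 they were 11 for the first in spleen, 1, 22 and 16 in MLN and 18 and 16 for the cDC2 subsets between tissues. With no filter they were 12, then 5, 20 and 17, then 34, 21 and 18, where more genes were tested. With the newer quasi-dispersion estimate they were 1, 12 and 11 in MLN and 14 for T-bet- cDC2s between tissues. With the class as a term they were 4 for MLN T-bet+ cDC2s over cDC1s, and 14 and 5 for the cDC2 subsets between tissues. With only the compared subsets they were 12 for spleen T-bet- and 4 for MLN T-bet+ cDC2s over cDC1s, with fewer libraries. Leaving out single libraries gave 1 to 9, 16 to 27 and 11 to 30 in spleen, 0 to 0, 2 to 11 and 0 to 9 in MLN, and 8 to 26, 3 to 13 and 1 to 12 between tissues.

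Replicate numbers did not pair the libraries throughout. Deviations of same-numbered libraries correlated at -0.73 to 0.43 in spleen, -0.14 to 0.66 in MLN and -0.10 to 0.06 in ATAC-seq. Those of MLN libraries with the same number in their names correlated at -0.01 to 0.66. In MLN, same-numbered T-bet+ and cDC1 libraries were at 0.66 and 0.63, and replicates 1 and 2 crossed between these subsets at -0.63 and -0.66. A pairing of these MLN subsets can therefore not be set aside, and the main fits held none. A replicate block gave counts of 1 in spleen T-bet+ over T-bet- cDC2s and 4 and 3 in MLN T-bet+ and T-bet- cDC2s over cDC1s. A block by the number in the MLN library names gave 2, 27 and 21 in MLN (13 higher and 117 lower of all genes for T-bet+ over T-bet- cDC2s), with Gpr4 at 0.0219 and Gpr65 at -0.35 for T-bet+ over T-bet- cDC2s.

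For the 18 windows, the count for T-bet+ over T-bet- cDC2s was 2 at an adjusted p of 0.05 with no fold threshold, and for T-bet+ cDC2s over cDC1s it was 3 with DESeq2, with library size only and over whole peaks. Over a log2 fold change of 1, it was 1 for both comparisons with cDC1s. Taking all windows within 50000 bases gave 5, 24 and 12. Leaving out single libraries gave 1 to 2, 3 to 5 and 1 to 3, with 2 without T-bet+ replicate 2 in the first, 3 without T-bet+ replicate 1 or either cDC1 library in the second and 1 without cDC1 replicate 1 in the third.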
